A study of Homo sapiens with 6 samples.

Results

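The 8 genes described here, CASP1, CASP2, CASP4, CASP6, CASP8, CASP9, CASP10 and CFLAR, were taken by name out of 18404 genes measured. Each was represented by the probe set (the group of array probes summarised into 1 value) with the highest mean over the arrays. Other caspase genes were covered as related genes. Cultures of human cells were compared, H69, an established small cell lung cancer line, and H69M, which carries the same cell type label, with 3 arrays each of total RNA. No treatment, genotype or passage is given for either line, and the origin of H69M is not given in the labels. Replicates are not described as separate cultures, so each p-value reflects array-to-array spread, which may be technical only.

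Caspases are cysteine proteases that cut proteins after aspartate and are made as inactive precursors. Initiator caspases are switched on when adaptor proteins bring them together, CASP8 and CASP10 at death receptors through FADD, CASP9 on the apoptosome built by APAF1 and cytochrome c, and CASP2 on the PIDDosome. Active initiators lead to the cutting of executioner caspases such as CASP6, which take the cell apart. The inflammatory caspases CASP1 and CASP4 instead mature interleukin-1 family cytokines or open gasdermin pores. CFLAR, also called c-FLIP, resembles CASP8 without its catalytic cysteine and restrains death receptor signalling. Loss of CASP8 expression is well known in small cell lung cancer.

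Arrays of the same line correlated over all genes with r between 0.995 and 0.998, and arrays of different lines with r between 0.938 and 0.950. Of 10 measured neuroendocrine small cell lung cancer markers, 0 were higher and 7 lower in H69M. Several stayed bright in both lines, such as the transcription factor gene INSM1 (10.43 in H69 and 10.10 in H69M, log2). Of 12 fibroblast markers, 10 were higher and 0 lower, and their summed level on the linear scale ran from 911 to 936 in H69 and from 9431 to 12344 in H69M. Leukocyte markers, which matter here because leukocytes express CASP1 strongly, had 1 gene higher and 4 lower of 14, with sums of 640 to 650 in H69 and 606 to 612 in H69M. PTPRC, the common leukocyte antigen, was dim in both (3.95 and 3.60). Endothelial markers had 2 higher and 1 lower of 8, with sums of 424 to 462 in H69 and 401 to 411 in H69M. Epithelial markers had 2 higher and 7 lower of 10. Their summed level was nonetheless higher in H69M (10743.5 to 11785.5) than in H69 (9110 to 9504). These array values have no zero, so no marker can be called absent. The part of the fibroblast genes in the results on caspase genes was not tested, and in bulk RNA a smaller number of cells of a type and less RNA per cell cannot be told apart.

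The promoters of 4 of the 8 genes are shown because they include the 3 largest rises (CASP4, CASP9 and CASP8) and CASP2, whose value was high in both lines. The sequences are RefSeq's, build GRCh38.p14, 5′ to 3′ on the gene's strand. They hold the bases before the annotated start, up to 250, that lie outside the gene itself. Capitals mark each CG dinucleotide.
CASP4, chr11:104968575-104968824, minus strand: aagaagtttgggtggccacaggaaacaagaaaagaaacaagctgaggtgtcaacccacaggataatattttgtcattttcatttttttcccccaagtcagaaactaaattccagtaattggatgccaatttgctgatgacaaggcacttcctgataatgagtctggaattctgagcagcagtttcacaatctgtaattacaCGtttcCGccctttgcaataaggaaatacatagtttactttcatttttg
CASP9, chr1:15524913-15525040, minus strand: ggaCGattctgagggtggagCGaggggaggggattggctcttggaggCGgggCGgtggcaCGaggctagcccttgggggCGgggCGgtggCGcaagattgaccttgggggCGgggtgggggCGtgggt
CASP8, chr2:201233213-201233462, plus strand: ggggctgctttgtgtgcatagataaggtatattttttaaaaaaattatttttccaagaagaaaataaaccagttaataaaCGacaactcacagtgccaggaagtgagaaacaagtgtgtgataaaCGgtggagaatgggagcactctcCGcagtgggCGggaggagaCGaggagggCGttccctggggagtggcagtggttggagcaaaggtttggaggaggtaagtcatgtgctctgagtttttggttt
CASP2, chr7:143288101-143288350, plus strand: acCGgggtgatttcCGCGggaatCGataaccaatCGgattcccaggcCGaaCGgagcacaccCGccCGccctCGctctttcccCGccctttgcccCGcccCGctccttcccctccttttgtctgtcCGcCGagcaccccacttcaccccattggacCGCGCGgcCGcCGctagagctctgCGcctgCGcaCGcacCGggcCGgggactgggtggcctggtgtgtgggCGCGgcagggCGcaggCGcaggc
The printed stretch held 2 CG dinucleotides in 250 bases for CASP4, 6 for CASP8 and 29 for CASP2, and the shorter CASP9 stretch of 128 bases held 10. For the whole 250-base windows before these starts, the observed over expected CG ratio was 0.22 for CASP4, 0.99 for CASP9, 0.56 for CASP8 and 0.94 for CASP2. Over 35116 tabled windows of that length its quartiles were 0.22, 0.56 and 0.85, so CASP4 lay near the lower quartile, CASP8 near the median and CASP9 and CASP2 above the upper quartile. Other annotated starts of the same genes differed: the ratio was 0.19 at the second CASP2 start (2 CG), 0.44 and 0.26 at the other CASP8 starts and 0.89 at the other CASP9 start. Both strands were searched for an ISRE-like run (GAAA, any 2 bases, GAAA; found in 3.02% of all windows), a GAS-like run (TTC, any 3 bases, GAA; 6.57%) and an NF-kB-like run (GGGA, any 2 bases, TTCC; 1.40%). Windows were tabled for 6 of the 8 genes, 13 in all, and 12 held none of these runs. The exception was CASP8, with ttccaagaa starting 200 bases before the start (position -200).

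Of the 8 genes, 4 rose in H69M, 1 fell and 3 did not pass the test. CASP4 and CASP9 rose by more than 2-fold, CASP8 and CASP10 rose by less, and CFLAR fell slightly. Passing means an adjusted p below 0.05 from limma, with Benjamini-Hochberg adjustment over the 18404 genes. By this rule 44.2% of all genes passed, 21% of all genes being higher and 23.2% lower, the background against which 5 of 8 is to be read. Differences of at least 2-fold that passed were found in 5.56% of genes higher and 2.72% lower, and in 2 of the 8 genes, both higher. The median log2 fold change of the 8 genes was 0.50, beside -0.041 for all genes. The 2 sets of arrays were fully separated for 5 of the 8 genes and for 55.8% of all genes.

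**Figure D1:**
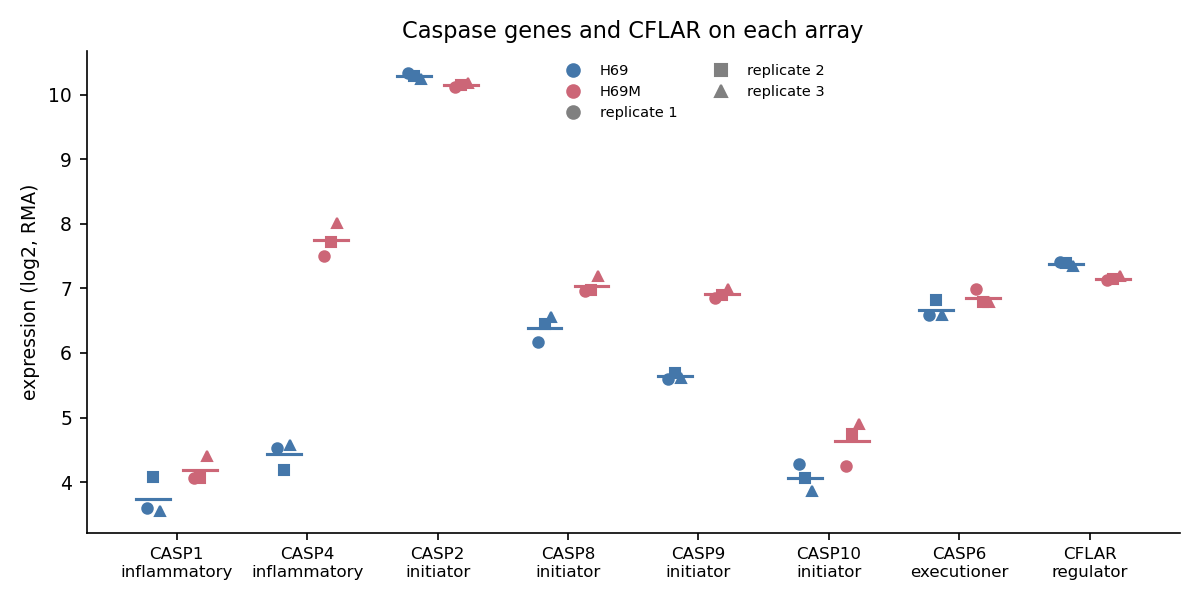
Expression (log2, RMA) of the 8 genes on each array, H69 in blue and H69M in red, with a marker shape for each replicate number and a line at each mean of 3 arrays. The CASP4 arrays lie between 4.19 and 4.58 in H69 and between 7.50 and 8.02 in H69M, while the CASP1, CASP10 and CASP6 arrays of the lines overlap; heights of different genes are not comparable.

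The inflammatory caspases differed in how far they moved. CASP4, which binds intracellular lipopolysaccharide and cuts gasdermin D, read 4.53, 4.19 and 4.58 on the H69 arrays and 7.50, 7.72 and 8.02 on the H69M arrays (log2, probe set 7951372). All H69M arrays were above all H69 arrays, with a gap of 2.92 between the nearest. The level rose from 4.43 ± 0.21 to 7.75 ± 0.26 (log2, SD, n = 3), a log2 fold change of 3.31 ± 0.15 (SE; limma adjusted p = 1.56e-06) or 9.94-fold. This was the rise with rank 142 of 18404 genes, and CASP4 went from the 11.9th percentile of all gene values in H69 to the 58.9th in H69M. RMA, the summary the values come from, compresses folds against dim genes, so the fold may be understated.

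CASP1, the inflammasome protease that matures interleukin-1 beta and interleukin-18, was dim in both lines. Its arrays read 3.59, 4.08 and 3.56 in H69 and 4.07, 4.07 and 4.41 in H69M (log2, probe set 7951397). The highest H69 array, replicate 2, lay at the level of the lowest H69M arrays, so the lines overlapped. Both means, 3.74 ± 0.29 and 4.18 ± 0.20 (log2, SD, n = 3), were under 4.28, the 10th percentile of gene means. The difference of 0.44 (95% interval 0.082 to 0.80) narrowly missed the threshold (limma adjusted p = 0.0504), and without H69 replicate 2 it was 0.61 and passed (limma adjusted p = 0.00648). CASP1 also passed with the arrays centred on their medians (limma adjusted p = 0.0428), normalized again (0.0313) or with eBayes trend (0.0413), a variance model that follows expression level. Over 14 alternatives that held the gene, 4 of which it passed, its limma adjusted p ran from 0.00648 to 0.156.

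Of the 4 initiator caspases, 3 rose and CASP2 did not pass. CASP9, the apoptosome caspase, read 5.60, 5.70 and 5.61 in H69 and 6.85, 6.89 and 6.99 in H69M (log2, probe set 7912646). The lines were separated by 1.16, far more than the range within H69 (0.094) or H69M (0.14). CASP9 rose by 1.28 ± 0.064 (log2, SE; limma adjusted p = 2.76e-06), from 5.64 ± 0.052 to 6.91 ± 0.072 (log2, SD, n = 3), which is 2.43-fold. Of all genes, 94.2% had a smaller or equal absolute fold change.

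CASP8, the initiator at the Fas and TRAIL receptors, read 6.17, 6.45 and 6.55 in H69 and 6.95, 6.97 and 7.19 in H69M (log2, probe set 8047419). Every H69M array was above every H69 array, with H69 replicate 1 the lowest of all. The level rose by 0.64 ± 0.11 (log2, SE; limma adjusted p = 0.00205), from 6.39 ± 0.20 to 7.04 ± 0.13 (log2, SD, n = 3), or 1.56-fold. The values carry no detection call, so it cannot be said from them whether CASP8 was above background in H69.

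CASP10, the second death receptor initiator, read 4.27, 4.06 and 3.87 in H69 and 4.26, 4.74 and 4.90 in H69M (log2, probe set 8047403). H69M replicate 1 lay among the H69 arrays, and the lines overlapped. The difference, 0.57 ± 0.17 (log2, SE), passed (limma adjusted p = 0.0288), from 4.07 ± 0.20 to 4.63 ± 0.34 (log2, SD, n = 3). The call was lost without H69 replicate 2 (limma adjusted p = 0.0724), H69 replicate 3 (0.0987), H69M replicate 2 (0.0896) or H69M replicate 3 (0.078). It was also lost when all 32321 probe sets, rather than 1 per gene, were fitted and adjusted together (limma adjusted p = 0.0599).

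CASP2, the PIDDosome caspase, was bright and nearly level, at 10.34, 10.29 and 10.24 in H69 and 10.12, 10.16 and 10.18 in H69M (log2, probe set 8136869). All H69M arrays were below all H69 arrays, by a gap of 0.065. The difference of -0.14 (95% interval -0.27 to -0.0077) did not pass over all genes (limma adjusted p = 0.0826). It passed with eBayes trend (limma adjusted p = 0.0284) and when only genes at or above the median level were fitted (0.0369).

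CASP6, the executioner caspase that cuts nuclear lamin A, read 6.60, 6.81 and 6.59 in H69 and 6.98, 6.79 and 6.78 in H69M (log2, probe set 8102311). H69 replicate 2 was above 2 of the H69M arrays. The difference of 0.19 (95% interval -0.015 to 0.39) did not pass (limma adjusted p = 0.122), nor under any of the 15 alternatives that kept the gene, where limma adjusted p ran from just above the threshold (without H69 replicate 2) to 0.294.

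CFLAR went the other way from CASP8 and CASP10. It read 7.40, 7.40 and 7.35 in H69 and 7.13, 7.14 and 7.19 in H69M (log2, probe set 8047381), with all H69M arrays below all H69 arrays. The fall was small, -0.23 ± 0.055 (log2, SE; limma adjusted p = 0.0104), from 7.38 ± 0.031 to 7.15 ± 0.032 (log2, SD, n = 3), or 1.17-fold. A second CFLAR probe set, 8047401, read 6.61, 6.38 and 6.65 in H69 and 6.10, 6.30 and 6.22 in H69M. These arrays too did not overlap, and the difference was -0.34 ± 0.097 (log2, SE; limma adjusted p = 0.0369 over all 32321 probe sets, where the first probe set had 0.0222). The 7 caspase genes had 1 probe set each. CFLAR and CASP8 each have several splice forms, which these summed probe sets do not tell apart.

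**Figure D2:**
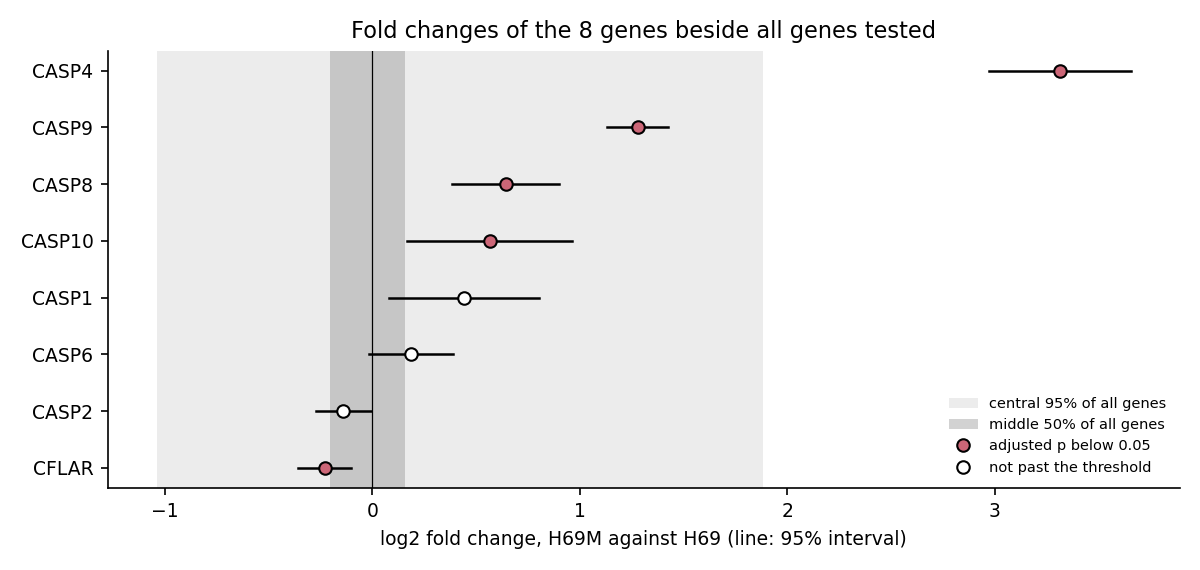
Log2 fold change of each of the 8 genes (H69M against H69) with its 95% interval, filled where limma's adjusted p was below 0.05; the bands hold the middle 50% (-0.21 to 0.16) and the central 95% (-1.04 to 1.88) of all genes. CASP4 at 3.31 lies outside the wider band, CASP9, CASP8, CASP10, CASP1 and CASP6 lie above the narrower one, CASP2 lies within it, and CFLAR at -0.23 is just below it.

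Among the H69M arrays, replicate 1 was the lowest and replicate 3 the highest for each of the 4 genes that rose. Of all genes that passed upwards, 29.1% had that same order, 49.7% had replicate 1 lowest and 41.1% had replicate 3 highest.

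Other genes of the death pathways were described from 9 lists of 101 genes, of which 89 were measured. Of these, 37 were higher and 13 lower (56.2% past the threshold, beside 44.2% of all genes), with a median log2 fold change of 0.098. When only genes at or above the median level were fitted, 18 were higher and 10 lower of 41. In that fit 2718 of all 9202 genes were higher and 3153 lower.

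Upstream of CASP8 and CASP10, several death receptor genes rose. Of 16 death ligands, receptors and adaptors, 8 were higher and 4 lower (75% past the threshold, beside 44.2% of all genes, median 0.24). The 4 lower were the ligand gene TNF (-0.92), CASP8AP2 (-0.67), FAIM (-0.64) and DAXX (-0.25). The death ligand gene TNFSF10, which encodes TRAIL, rose from 5.79 to 8.73 (log2 fold change 2.94 ± 0.070, SE; limma adjusted p = 9.69e-08), and its receptor gene TNFRSF10B rose by 1.52. FAS, the Fas receptor, rose by 1.54, the decoy TRAIL receptor gene TNFRSF10D by 1.55 and the TNF receptor gene TNFRSF1A by 1.80. The adaptor FADD joins the products of FAS and TNFRSF10B to CASP8. Its gene was 0.23 higher, which did not pass (limma adjusted p = 0.0652), though it did with the arrays centred (0.0412) and under 4 other settings. RIPK1 was not analysed here. Of 4 necroptosis genes, CYLD (0.76) and MLKL (0.71), the pore-forming effector, rose, and the nucleic acid sensor gene ZBP1 fell (-0.30), a call lost in 5 of 15 alternatives.

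Around CASP9 the apoptosome genes were split. Of 11 genes of the apoptosome and mitochondrial release, 2 were higher and 2 lower (median 0.034). These were 36.4% of the list, beside 44.2% of all genes. APAF1, the scaffold that activates CASP9, rose by 0.91 ± 0.095 (log2, SE; limma adjusted p = 0.00014). CYCS, cytochrome c, fell by 0.53 on the log2 scale, and the mitochondrial flavoprotein gene AIFM1 by 0.21, which without H69 replicate 1 no longer passed (limma adjusted p = 0.057). The mitochondrial protease gene HTRA2 rose by 0.53. Among 7 genes of the inhibitor of apoptosis family and its antagonist XAF1, 3 were higher and 1 lower (57.1% past the threshold, median -0.022). XIAP, which blocks CASP9 directly, had a log2 fold change of -0.022, not past the threshold (limma adjusted p = 0.827), and turned positive under 3 alternatives. XAF1 rose by 1.16 and BIRC2, a ubiquitin ligase of TNF receptor complexes, by 1.06. NAIP fell by 1.58 on the log2 scale, from 10.42 to 8.84. BIRC5, or survivin, rose by 0.19, a call lost in 6 of 16 alternatives. Both measured PIDDosome genes, the partners of CASP2, fell, PIDD1 by 0.60 and CRADD by 0.52 on the log2 scale.

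Part of the inflammasome and pyroptosis list, which holds partners of CASP1 and CASP4 among other genes, was higher. Of 19 inflammasome and pyroptosis genes, 9 were higher and 0 lower (median 0.098), and 10 did not pass. The share that passed was 47.4%, beside 44.2% of all genes. NAIP (-1.58) and CARD8 (-0.16), whose products also act in inflammasomes, fell but were counted in other lists. The pore-forming gene GSDME rose by 2.79 ± 0.19 (log2, SE; limma adjusted p = 1.5e-05). The cytokine genes IL1B (2.31), IL1A (1.67) and IL18 (1.08), whose IL1B and IL18 products CASP1 cuts, rose. IL18 was dim, with means of 3.13 in H69 and 4.21 in H69M (log2), both under the 10th percentile of gene means, and IL1A was under it in H69 (3.93). GSDMD, the gasdermin that CASP1 and CASP4 cut, had -0.15 (limma adjusted p = 0.183), and the inflammasome adaptor PYCARD had -0.0033 (0.982); neither passed. The sign of PYCARD turned under 4 alternatives. Of 8 caspases and relatives outside the named 8, 2 were higher and 1 lower (37.5% past the threshold, median -0.044). MALT1, a paracaspase of NF-kB signalling, rose by 0.94 and CARD16, an inhibitor of CASP1, by 0.38. CARD16 was dim in both lines too (3.23 and 3.61), so its size of change is uncertain. CARD8 fell by 0.16 on the log2 scale, a call lost in 10 of 16 alternatives.

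Downstream, 4 of 12 caspase substrates and death nucleases were higher and 2 lower (median -0.028). These were 50% of the list, beside 44.2% of all genes. LMNA, the lamin A gene whose product CASP6 cuts, rose by 1.90 ± 0.10 (log2, SE; limma adjusted p = 4.07e-06) and the kinase gene PAK2 by 0.54. The actin-severing gelsolin gene GSN fell by 0.68 on the log2 scale and lamin B1, LMNB1, by 0.50.

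**Figure D3:**
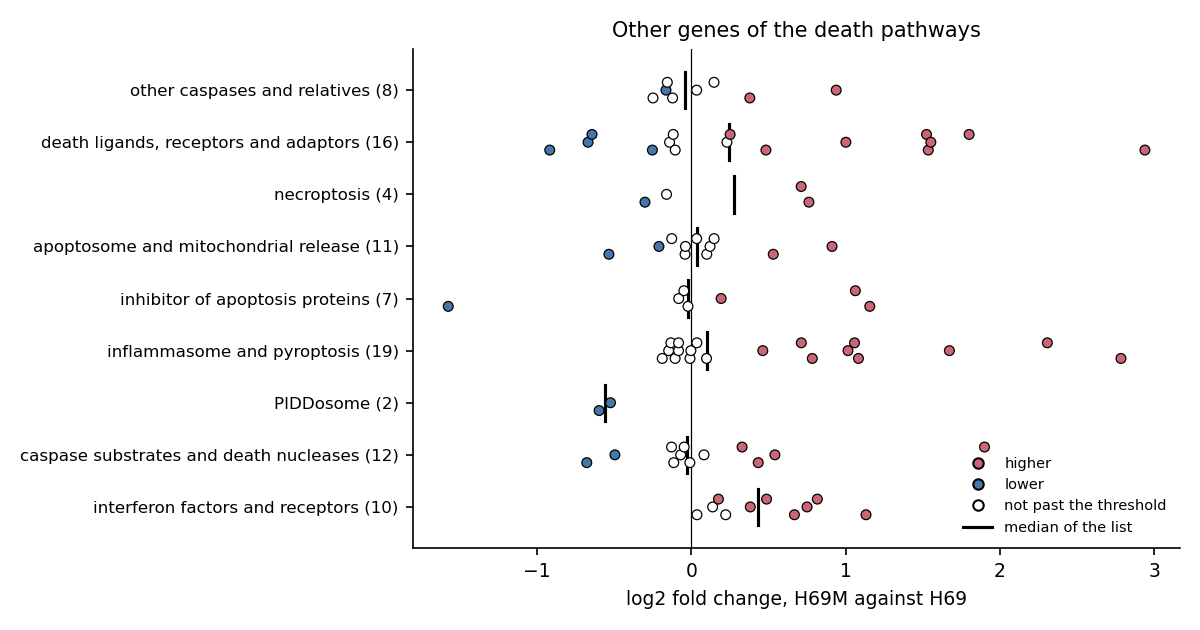
Log2 fold change (H69M against H69) of the measured genes of 9 lists, 1 point per gene, red where higher and blue where lower at limma's adjusted p threshold and white where it was not past it, with a line at each list's median and the number measured in brackets. The list of death ligands, receptors and adaptors reaches from below 0 to 2.94 (TNFSF10), the inhibitor of apoptosis list reaches down to -1.58 (NAIP), and both PIDDosome genes are below 0.

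In the genome 5 of the 8 genes sit in 2 groups. CFLAR, CASP10 and CASP8 are adjacent on chromosome 2, and CASP4 and CASP1 on chromosome 11 have only CASP5 between them among the measured genes. On chromosome 2, CFLAR fell while CASP10 and CASP8 beside it rose. Of the 5 measured genes on each side of this group, 4 were higher and 1 lower. TRAK2 (0.69), STRADB (0.57) and TMEM237 (0.55) rose on the CASP8 side, and on the CFLAR side HYCC2 fell (-0.38) and PPIL3 rose (0.40).

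On chromosome 11 the rise of CASP4 stood among genes that moved far less. CASP5, between CASP4 and CASP1, had 0.15 and the pseudogene CASP12 on the other side -0.16, and neither passed. Of 11 neighbours, 3 were higher and 1 lower: CARD16 (0.38), the dynein gene DYNC2H1 (1.30) and the growth factor gene PDGFD (0.71) rose, and DDI1 fell (-0.25). CASP5 resembles CASP4 and CASP1 in sequence, and CARD16 resembles CASP1, so the signals of these probe sets may not be fully separate. This was not tested. Around CASP9, CASP2 and CASP6 the counts were 3, 4 and 5 higher and 0, 0 and 1 lower of 10 each. Over all 51 neighbours, 19 were higher and 3 lower, with a median of 0.11; the 22 that passed were 43.1% of them, near the 44.2% of all genes, of which 21% were higher and 23.2% lower. Those that passed near CASP9 were EFHD2 (0.85), PLEKHM2 (0.56) and FHAD1 (0.27). Near CASP2, ZYX, a focal adhesion protein, rose by 3.38, FAM131B by 0.54, GSTK1 by 0.42 and TMEM139 by 0.29. Near CASP6, the complement factor gene CFI rose by 3.65, EGF by 1.54, OSTC by 0.68, COL25A1 by 0.26 and SEC24B by 0.17, and MCUB fell (-0.51).

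**Figure D4:**
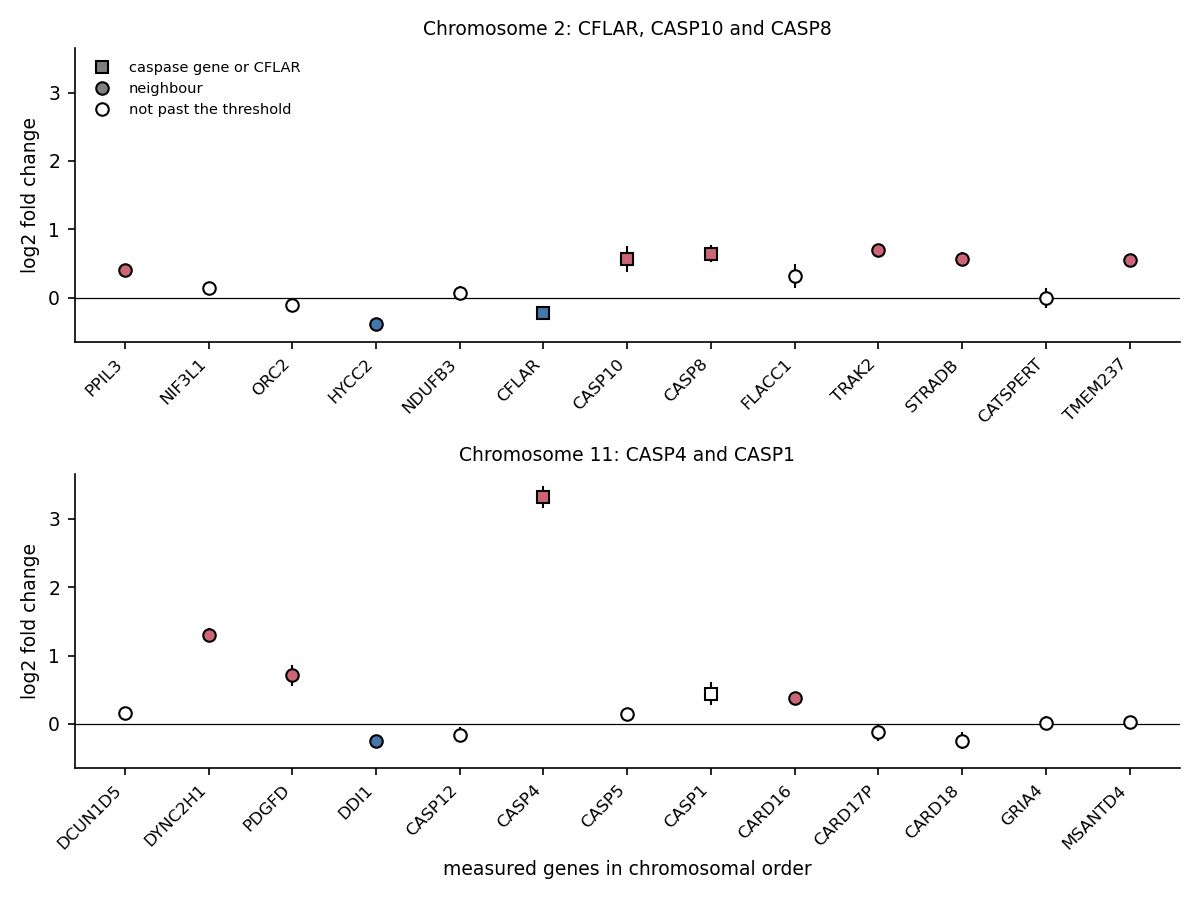
Log2 fold change (H69M against H69, line: SE) of the measured genes in chromosomal order around CFLAR, CASP10 and CASP8 and around CASP4 and CASP1, squares for these 5 genes and circles for neighbours, white where limma's test was not passed. CASP4 at 3.31 stands above its neighbours, of which the next highest is DYNC2H1 at 1.30, and CFLAR is below 0 beside CASP10 and CASP8 above 0.

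The genes with the closest pattern were sought for the largest rise and the largest fall, by Pearson r over the 6 arrays among genes past the threshold. For CASP4 these were the tubulin gene TUBA1C (r = 0.9999), EDEM1 (0.9997) and MAMLD1 (0.9997). For CFLAR they were NDUFAF4 (0.9989), FOCAD (0.9982) and SMR3A (0.9981). The difference between the 2 lines sets most of such an r, and these genes differed in size of change: TUBA1C rose by 0.90 where CASP4 rose by 3.31.

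**Figure D5:**
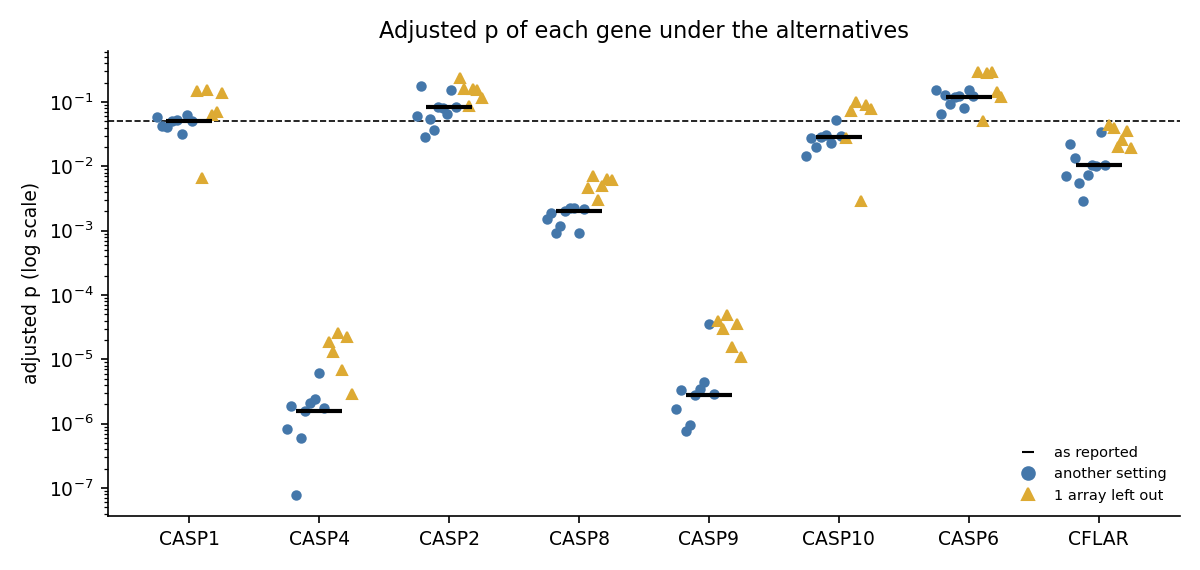
Adjusted p (limma, log axis) of each of the 8 genes as reported (black bar), under other settings (blue) and with 1 array left out (yellow); the dashed line is the threshold of 0.05. CASP4, CASP9, CASP8 and CFLAR stay below the line throughout, CASP1, CASP2 and CASP10 fall on both sides of it, and CASP6 does not cross it.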

How the data were processed

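Per the labels' protocols, total RNA was purified on a column, amplified and biotin-labelled for Affymetrix whole-transcript arrays. The deposited values are log2 expression per probe set; per the submitters' processing notes RMA and limma were used, with versions not stated, and for the genome build nothing is given in the sources used here. The 6 arrays had medians of 6.43 to 6.48 and were not normalized again.

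Of 32321 probe sets, 19158 had 1 gene symbol in the platform annotation, 1388 had several and 11775 were not listed; the first kind covered 18404 genes. By Entrez ID 19128 of them matched the reference gene table (GRCh38.p14, used for names and gene order), and 0 symbols were updated. H69M was compared with H69 by limma 3.58.1 in R 4.3.3 (lmFit, eBayes, two-sided, group as the only term). Python 3.11.15, pandas 2.3.3 and matplotlib 3.10.9 did the rest. The genes, lists and tests were chosen with earlier results of these data known. Named in the text are the 8 genes, up to 4 genes past the threshold per pathway list with the largest change, fixed partner genes, neighbours past the threshold and the 3 genes of closest pattern. CASP5, CASP12, the marker genes INSM1 and PTPRC, and the lower genes TNF, CASP8AP2, FAIM and DAXX are named besides. In simulated H69M against H69 data of 18404 genes with 200 changed, limma recovered 84% of genes raised by 0.5 in log2, 82% of those lowered by 0.5 and 100% of those raised by 1, with 12 false calls. The simulated noise was independent between genes, and far fewer genes were changed than the 44.2% that passed here. These rates therefore need not hold for the data.

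The fit was repeated with a replicate block, 2 scalings, 2 filters on level, trend, robust eBayes, array weights, 2 ways of choosing probe sets, and without each array in turn. A separate fit over all 32321 probe sets served to compare the probe sets of the 8 genes; there CASP10 did not pass. Precision is limited by the small number of arrays; the median SE of a log2 fold change was 0.075.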

Additional observations from a re-analysis of the deposited data

How the results depend on the processing

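CASP4, CASP8, CASP9 and CFLAR kept their direction and stayed past the threshold in every alternative that held them (15, 15, 15 and 16), and no alternative turned the sign of any of the 8 genes. With only genes at or above the median level fitted, 2 of 2 remaining of the 8 genes passed, CASP2 and CFLAR, since the other 6 are not in that fit. There 28 of the 41 remaining pathway genes passed. Of all genes in that fit, 5871 of 9202 passed, a larger share than the 44.2% of the main fit. CASP1 and CASP10 are also not in the fit without genes below the 25th percentile. With 1 array left out, 4 to 5 of the 8 genes, 43 to 50 of the 89 pathway genes and 6867 to 8078 of all genes passed. Same-numbered arrays did not deviate together (r = 0.021, 0.0072 and 0.0099), so the numbers were not taken as pairs; with the replicate block 7638 genes, 4 of the 8 genes (3 higher, 1 lower) and 45 pathway genes passed, and CASP10 had a limma adjusted p = 0.0516. The signs of PYCARD and XIAP, neither past the threshold, turned: PYCARD was 0.027 with centred arrays, 0.020 normalized again, 0.060 without H69 replicate 3 and 0.099 without H69M replicate 2 (-0.064 to 0.099 with 1 array left out); XIAP was 0.0078 with centred arrays, 0.011 without H69 replicate 2 and 0.0019 without H69M replicate 1 (-0.067 to 0.011 with 1 array left out); the cause was not tested. Low signal limits CASP1, CASP10, CARD16 and IL18, as RMA gives no detection call.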

Other observations

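Genes of the interferon factors, receptors and kinases that can act on caspase genes were mostly higher in H69M. Of 10 measured, 7 were higher and 0 lower (70% past the threshold, beside 44.2% of all genes, median log2 fold change 0.43). The transcription factor gene IRF2 rose by 1.13, the interferon receptor genes IFNGR2 and IFNAR2 by 0.82 and 0.75 and the kinase gene JAK1 by 0.67. The highest limma adjusted p of these 4 genes was 0.000211, for IFNAR2.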
